A study of Mus musculus with 4 samples.

Results

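The mitochondrial carrier family Slc25 was read as every gene of the deposited comparison table whose name is Slc25a followed by a number, except 1 that the rule leaves out. That gave 33 of the 10716 genes in the table. The annotation on NCBIM37 names 44 genes of this pattern, and those outside the 33 are not analysed here. The 33 had at least 31 counts in every library. The table holds genes above 1 CPM (counts per 1000000 counts of the library) in at least 2 libraries, and 0 of the 33 were above it in one group alone.

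RNA was sequenced from fetal liver erythroid cells of C57BL/6 embryos at E14.5, sorted for YFP from the R26eYFP reporter. The 2 libraries labelled knockout (replicates 1 and 2) have the genotype Epor-Adar / +, with Cre driven from Epor, the erythropoietin receptor gene. Adar encodes ADAR1, an enzyme that edits adenosines in RNA. The 2 control libraries (replicates 3 and 8) are labelled wild type. The labels give neither the number of deleted Adar alleles nor whether controls carry Cre. They also do not say that each library is a separate embryo, so a p-value reflects the spread among these 4 libraries. Y-linked genes were read in knockout-labelled replicate 1 and hardly in replicate 2, so those libraries are not repeats of 1 RNA sample. For the controls this is not known. The comparison asks how carrier transcripts differ when Adar is deleted in erythroid cells.

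Slc25 proteins move metabolites, nucleotides, cofactors and ions across the inner mitochondrial membrane, mostly by exchange. They share a fold built of repeated pairs of membrane helices with a conserved signature motif, and import complexes of the outer and inner membranes place them. Erythroid cells depend on several of them, because haem synthesis begins and ends in the mitochondrion and needs imported glycine and iron.

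No Slc25 gene passed the test. In edgeR's quasi-likelihood test 0 of 33 members had an adjusted p below 0.05, where 0.103% of all genes did. The smallest adjusted p among members was 0.359, for Slc25a36. At an unadjusted p below 0.05 there were 4 members, 2 higher (Slc25a36 and Slc25a20) and 2 lower (Slc25a10 and Slc25a25), beside 11.9% of all genes. The authors' deposited table likewise had 0 members below an adjusted p of 0.05, with a smallest value of 0.442, where 8 of 10716 genes (0.0747%) were below it.

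Of the 33 members, 22 (66.7%) had an absolute log2 fold change below 0.5, against 69.0% of all genes. The median log2 fold change of knockout over control was -0.16 over the members and -0.00077 over all genes, and 21 members had negative values, against 12 positive. The median absolute log2 fold change was 0.27 over members and 0.32 over all genes. The summed level of the 33 genes was 2312 and 2351 CPM, here of the TMM-scaled library, in the knockout-labelled libraries, against 2473 and 2353 CPM in the controls. Both knockout sums lay below both control sums, but knockout-labelled replicate 2 and control replicate 8 were almost level.

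Adar itself had 67.1 and 102 CPM in knockout-labelled libraries and 50.9 and 46.9 CPM in controls (log2 fold change 0.79, SE 0.25, edgeR adjusted p = 0.377). Both knockout-labelled libraries were above both controls, so its gene-level count does not show the deletion, and it checks nothing if reads from the exons left in place are counted. The groups are therefore named by their labels, and every direction rests on them. Total counts ran from 28356401 to 44016809 per library. The recorded sex went against the counts of 4 Y-linked genes in 3 of 4 libraries, and those counts summed to 3 in knockout-labelled replicate 2. Of these genes, Eif2s3y had 106 and 0 CPM in knockout-labelled libraries and 72.2 and 79.6 CPM in controls. Knockout-labelled replicate 2 alone nearly lacked Y-linked counts, so sex was not balanced by these counts. The part of sex in the carrier values was not tested. Of the erythroid markers 8 of 8 were measured, with summed levels of 37686 and 40640 CPM in knockout-labelled libraries and 57904 and 38842 CPM in controls. Macrophage markers (6 of 8 listed symbols in the table) summed to 7.27 and 16.2 CPM in knockout-labelled libraries and 33.6 and 16.8 in controls. Of those symbols, Emr1 and Adgre1 name the same gene, which is in the table as Emr1. Neutrophil markers (4 of 5) summed to 127 and 17.6 CPM in knockout-labelled libraries and 22.8 and 21.1 in controls. Megakaryocyte markers (4 of 4) summed to 121 and 75.3 CPM in knockout-labelled libraries and 39.4 and 64.3 in controls. Itga2b was the largest part of the megakaryocyte sums (103 and 59.3 in knockout-labelled libraries, 19.8 and 51.0 in controls). Gp9 was lowest in knockout-labelled replicate 1 (8.48 and 12.4 in knockout-labelled libraries, 16.8 and 11.1 in controls). Hepatoblast markers (6 of 6) summed to 57.5 and 67.3 CPM in knockout-labelled libraries and 122 and 48.3 in controls. None of the markers in the table was at 0 in any library. In sorted cells measured in bulk, fewer cells of a type and less RNA per cell cannot be told apart, and the part of other cell types in the carrier values was not tested.

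Levels per kilobase of exon covered a wide range. Slc25a5, the ADP/ATP exchanger of dividing cells, had the highest level in controls, with 267 and 272 CPM per kilobase in knockout-labelled libraries and 292 and 329 in controls. Slc25a39, which brings glutathione into the matrix, had 268 and 273 in knockout-labelled libraries and 266 and 195 in controls. These 2 genes overlapped in the knockout-labelled libraries and did not overlap in the controls. The erythroid glycine carrier gene Slc25a38 came next, with 92.2 and 87.6 CPM per kilobase in knockout-labelled libraries and 110 and 91.4 in controls. In every library it lay well below the leading pair. The phosphate carrier gene Slc25a3 (46.2 and 47.9 in knockout, 54.4 and 63.9 in control) and the peroxisomal carrier gene Slc25a17 (24.5 and 24.3 in knockout, 21.9 and 23.3 in control) followed. Each of these 3 was separated from the next in every library. Lowest was Slc25a45, with 0.443 and 0.352 CPM per kilobase in knockout-labelled libraries and 0.424 and 0.263 in controls. Exon lengths cover all annotated transcripts, so a gene expressed as a short isoform has a level that is too low on this scale.

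**Figure D1:**
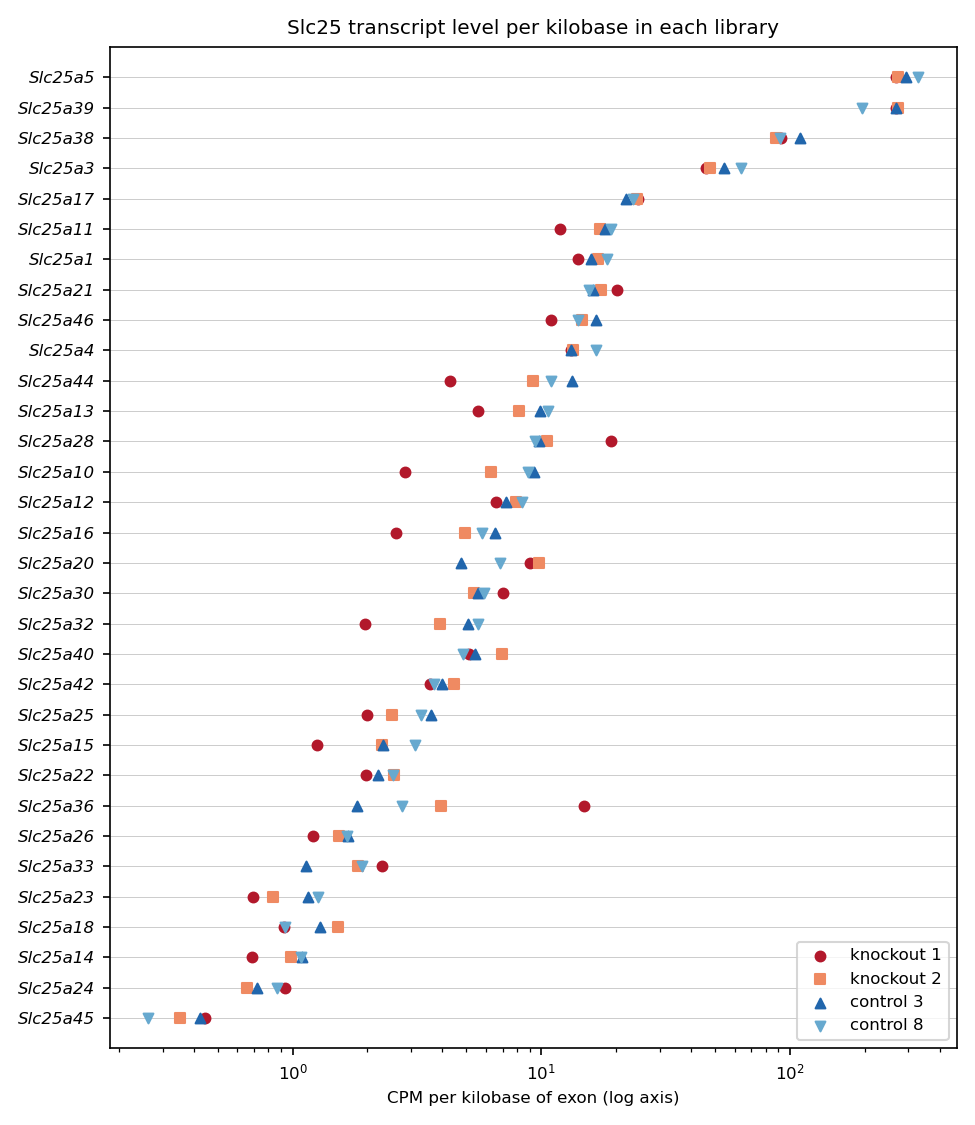
Level of 32 Slc25 genes in each library, in CPM per kilobase of exon on a log axis, ordered by the control mean. Red and orange points are knockout-labelled replicates 1 and 2, and dark and light blue points are control replicates 3 and 8. Slc25a5, Slc25a39 and Slc25a38 lead in all 4 libraries, and Slc25a36 stands at 14.9 and 3.96 in knockout-labelled libraries and 1.81 and 2.75 in controls.

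The largest difference of the family was in a pyrimidine nucleotide carrier gene. Slc25a36, which carries pyrimidine nucleotides across the inner membrane (ENSMUSG00000032449, minus strand of chromosome 9 on NCBIM37, 96976016 to 97011576), had 101 and 26.9 CPM in knockout-labelled libraries and 12.3 and 18.7 CPM in controls. Both knockout-labelled libraries lay above both controls, and knockout-labelled replicate 1 was far above the other 3. Mean levels were 63.9 ± 52.3 CPM in knockout and 15.5 ± 4.49 CPM in control libraries (SD, n = 2 each). The log2 fold change was 2.04 (SE 0.62, 95% interval 0.52 to 3.56, edgeR adjusted p = 0.359), at percentile 98.2 of all genes. It was the only member with an absolute log2 fold change above 1, where 8.76% of all genes were past that size.

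The call on Slc25a36 depended on the tool, and the size of its difference depended on 1 library. DESeq2 (log2 fold change 2.04, adjusted p = 0.00796) and edgeR's likelihood ratio test (2.04, adjusted p = 0.0393) called it higher, and it was the single member each called, where DESeq2 called 3.49% of all genes (3.29% higher and 0.196% lower) and the likelihood ratio test 3.26% (3.09% higher and 0.168% lower). Without knockout-labelled replicate 1 its log2 fold change was 0.79, and leaving out replicate 2 instead gave 2.69. Without control replicate 3 it was 1.77 and without control replicate 8 it was 2.36. Each such fit leaves 1 library in a group, so only effect sizes are given gene by gene.

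Slc25a33, the other pyrimidine nucleotide carrier gene, had 4.31 and 3.47 CPM in knockout-labelled libraries and 2.14 and 3.59 CPM in controls. Its groups overlapped, at 0.43 on the log2 scale (SE 0.39, adjusted p = 0.583), with values from 0.11 to 0.85 when 1 library was left out, the lowest without control replicate 3 and the highest without control replicate 8. The bases before the start sites of these carriers and of Slc25a10, which had the lowest log2 fold change, are shown for comparison. They are the 250 bases upstream of the RefSeq start on GRCm38.p6, 5′ to 3′ along the gene, and capitals mark the motifs found, TGACGTCA (CRE, bound by ATF and CREB factors) and CACGTG (E-box).
Slc25a36, chr9:97111042-97111291, minus strand: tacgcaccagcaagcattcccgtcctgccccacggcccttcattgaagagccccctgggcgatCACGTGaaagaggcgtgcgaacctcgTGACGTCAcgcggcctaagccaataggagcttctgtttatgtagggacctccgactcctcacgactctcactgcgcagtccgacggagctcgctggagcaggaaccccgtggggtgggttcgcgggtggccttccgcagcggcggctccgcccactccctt
Slc25a33, chr4:149774268-149774517, minus strand: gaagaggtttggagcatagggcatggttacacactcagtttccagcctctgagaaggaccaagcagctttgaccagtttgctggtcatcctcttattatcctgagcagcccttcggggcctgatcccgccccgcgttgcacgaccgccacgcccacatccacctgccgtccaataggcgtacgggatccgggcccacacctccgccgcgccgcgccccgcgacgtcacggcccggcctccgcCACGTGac
Slc25a10, chr11:120491587-120491836, plus strand: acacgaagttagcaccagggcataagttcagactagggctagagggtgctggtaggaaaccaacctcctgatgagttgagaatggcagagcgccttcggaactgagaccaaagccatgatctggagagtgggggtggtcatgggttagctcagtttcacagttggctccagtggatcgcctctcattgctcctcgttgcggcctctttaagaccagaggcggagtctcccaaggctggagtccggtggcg

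In Slc25a36 the CRE begins 161 bases and the E-box 187 bases before the start, and in Slc25a33 an E-box begins 8 bases before it. Among 37 windows of 28 members searched on both strands, the CRE was in 2 (Slc25a36 and Slc25a25), where 1.55% of all 32851 windows hold it. The E-box was in 7 member windows of 6 genes, against 6.02% of all windows, and overlapping windows of Slc25a14 hold the same site. The interferon-stimulated response element (GAAA, any pair of bases, GAAA) was in 2 (Slc25a15 and Slc25a22; 2.98% of all windows), the GATA letters AGATAA in 1 (Slc25a5; 9.99%) and the amino acid response letters TGATGNAA in 0 (3.45%). None of these letters were in the Slc25a10 window, and a match is a description of the letters only.

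Other carriers of nucleotide cofactors had smaller differences. Slc25a16, a carrier linked to coenzyme A, had 12.5 and 23.7 CPM in knockout-labelled libraries and 31.4 and 27.8 CPM in controls (log2 fold change -0.71, SE 0.34, adjusted p = 0.433). With knockout-labelled replicate 1 left out this was -0.32, and with replicate 2 left out it was -1.26. The knockout values lay below both controls without passing. Slc25a17, the carrier of the peroxisome, had 40.9 and 40.5 CPM in knockout-labelled libraries and 36.5 and 38.9 CPM in controls (log2 fold change 0.11). The coenzyme A carrier gene Slc25a42 overlapped between groups, at 21.5 and 26.8 CPM in knockout-labelled libraries and 23.9 and 22.2 CPM in controls.

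The ADP/ATP exchangers, which pass ATP out of the matrix, had small negative log2 fold changes. Slc25a5 (chromosome X, plus strand, 34335646 to 34338802 on NCBIM37) had 440.2 and 449 CPM in knockout-labelled libraries and 481 and 542 CPM in controls. Both knockout values were below both controls, with a fold change of -0.20 on the log2 scale (SE 0.21, 95% interval -0.72 to 0.31, adjusted p = 0.625). The muscle and heart form Slc25a4 had 30.99 and 31.6 CPM in knockout-labelled libraries and 31.1 and 39.1 CPM in controls (-0.17, SE 0.21), and its groups overlapped. Slc25a5 and Slc25a14 are the X-linked members, and knockout-labelled replicate 2 is the library with almost no Y-linked counts. The log2 difference of knockout-labelled replicate 1 minus replicate 2 was -0.027 for Slc25a5 and -0.50 for Slc25a14.

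The ATP-Mg and phosphate carriers had 4 of 4 negative log2 fold changes, and 0 passed. Slc25a25, a calcium-regulated ATP-Mg and phosphate exchanger, had 9.26 and 11.6 CPM in knockout-labelled libraries and 16.6 and 15.2 CPM in controls. Its log2 fold change was -0.61 (SE 0.24, adjusted p = 0.419). It was -0.45 with knockout-labelled replicate 1 left out and -0.79 with replicate 2 left out. Its relative Slc25a23 had 3.69 and 4.41 CPM in knockout-labelled libraries and 6.09 and 6.68 CPM in controls (-0.66, SE 0.30, adjusted p = 0.433). For both, the knockout values were lower than both controls and the difference exceeded the gap within each group. The phosphate carrier gene Slc25a3, which feeds ATP synthase, had 256 and 266 CPM in knockout-labelled libraries and 302 and 354 CPM in controls (-0.33, SE 0.20, adjusted p = 0.466). Slc25a24, another calcium-regulated carrier, overlapped between groups, at 3.20 and 2.25 CPM in knockout-labelled libraries and 2.47 and 2.98 CPM in controls (-0.0033, SE 0.37).

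Slc25a38, which imports glycine for the first step of haem synthesis and is mutated in congenital sideroblastic anaemia in humans, overlapped between the groups. It had 253 and 241 CPM in knockout-labelled libraries and 302 and 251 CPM in controls, with means of 247 ± 8.92 CPM in knockout-labelled and 277 ± 36.2 CPM in control libraries (SD, n = 2 each). Knockout-labelled replicate 1 lay just above and replicate 2 just below the lower control, and the gap between the controls was larger than the difference of the means. The log2 fold change was -0.16 (SE 0.20, 95% interval -0.66 to 0.33, edgeR adjusted p = 0.681). It lies on the plus strand of chromosome 9 (ENSMUSG00000032519, 120019492 to 120033622 on NCBIM37).

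Of the other 6 amino acid carriers, 3 had knockout values below both controls, as had 26.7% of all genes, and none passed. Slc25a44, a carrier of branched-chain amino acids, had 15.5 and 33.6 CPM in knockout-labelled libraries and 48.4 and 39.5 CPM in controls (log2 fold change -0.84, SE 0.38, adjusted p = 0.433). It was -0.39 when replicate 1 of the knockout label was left out and -1.51 when replicate 2 was. Slc25a13, an aspartate and glutamate exchanger of the malate-aspartate shuttle, had 17.5 and 25.5 CPM in knockout-labelled libraries and 30.96 and 33.5 CPM in controls. Its log2 fold change was -0.58 (SE 0.25, adjusted p = 0.433), and the same omissions gave -0.34 and -0.89. Its paralog Slc25a12 overlapped, at 48.2 and 58.0 CPM in knockout-labelled libraries and 53.0 and 61.6 CPM in controls (-0.11, SE 0.20). The ornithine carrier gene Slc25a15 had 4.34 and 7.88 CPM in knockout-labelled libraries and 8.01 and 10.7 CPM in controls (-0.62, SE 0.37). For it the same omissions gave -0.255 and -1.12, and leaving out control replicate 8 gave -0.397. The glutamate carrier gene Slc25a22 had 7.99 and 10.3 CPM in knockout-labelled libraries and 8.96 and 10.3 CPM in controls (-0.07), and its paralog Slc25a18 had 1.27 and 2.099 CPM in knockout-labelled libraries and 1.78 and 1.29 CPM in controls (0.15). Both overlapped between groups. Paralogs such as these share sequence, and how shared reads were counted is not stated.

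Slc25a10, the dicarboxylate carrier that exchanges malate and succinate for phosphate, had the lowest log2 fold change of the family. It had 9.79 and 21.7 CPM in knockout-labelled libraries and 32.4 and 30.6 CPM in controls, with means of 15.8 ± 8.44 CPM in knockout-labelled and 31.5 ± 1.23 CPM in control libraries (SD, n = 2 each). The knockout values were below both controls, with knockout-labelled replicate 1 lowest. The log2 fold change was -0.998 (SE 0.39, 95% interval -1.95 to -0.045, edgeR adjusted p = 0.419). Leaving out knockout-labelled replicate 1 gave -0.54, and leaving out replicate 2 gave -1.70. The gene lies on chromosome 11 (ENSMUSG00000025792, plus strand, 120353154 to 120360501 on NCBIM37).

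The oxoglutarate and malate carrier gene Slc25a11 had 25.2 and 36.7 CPM in knockout-labelled libraries and 38.3 and 40.5 CPM in controls (log2 fold change -0.35, SE 0.25, adjusted p = 0.504). Its value was -0.10 with knockout-labelled replicate 1 left out and -0.65 with replicate 2 left out. The citrate carrier gene Slc25a1 overlapped, at 30.6 and 36.9 CPM in knockout-labelled libraries and 34.4 and 40.1 CPM in controls (-0.14, SE 0.21). Slc25a21, which carries oxoadipate, had the opposite sign, at 96.9 and 83.7 CPM in knockout-labelled libraries and 77.9 and 74.7 CPM in controls (0.24, SE 0.18, adjusted p = 0.521). Of these 4 carboxylate carriers, 3 had negative values and 1 a positive value.

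**Figure D2:**
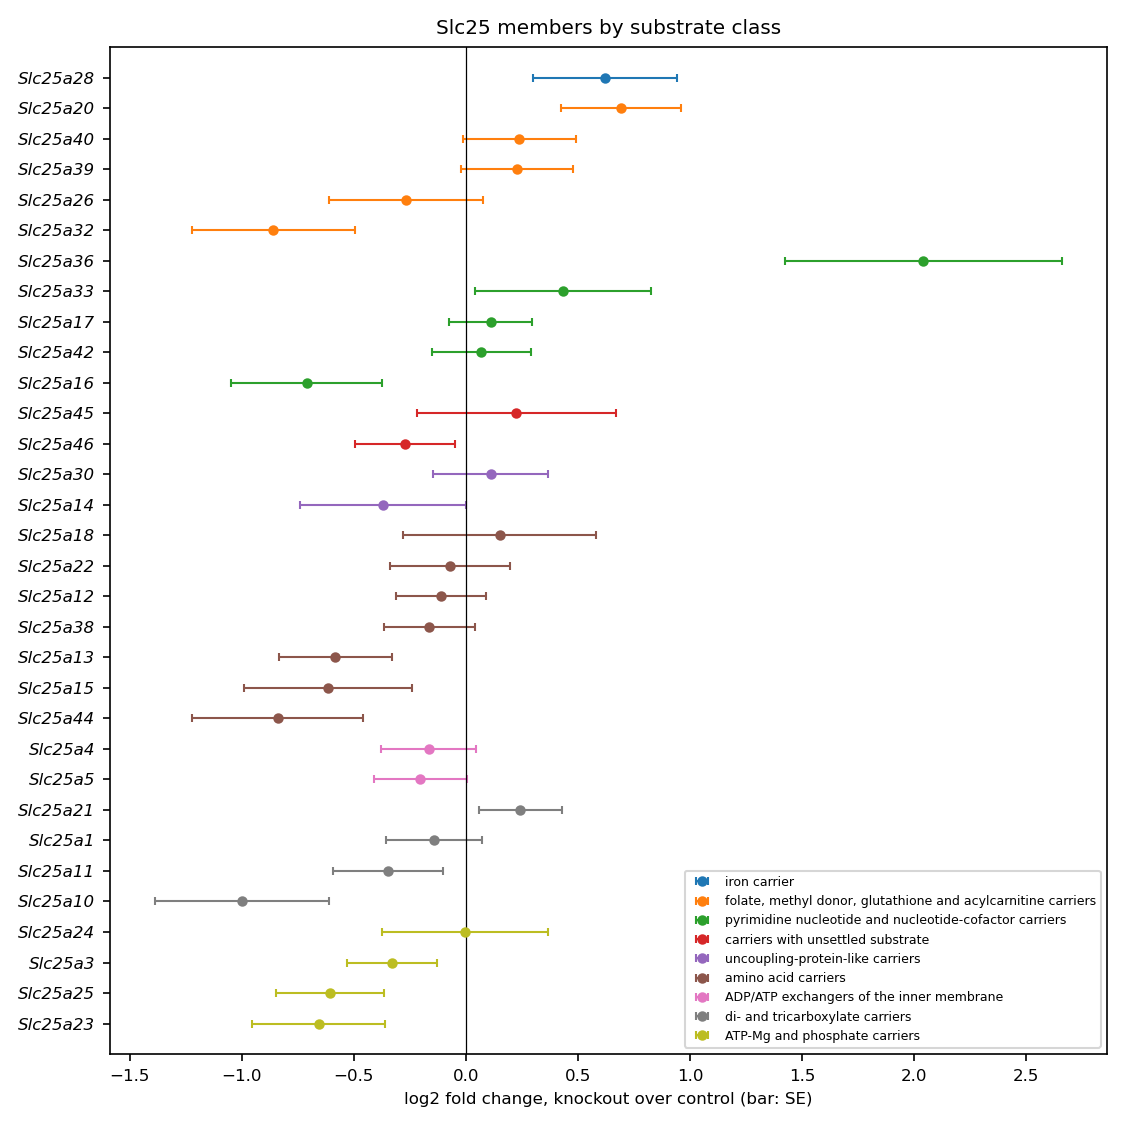
Log2 fold change of knockout over control for 32 Slc25 genes, with bars of 1 SE, coloured and grouped by substrate class. Slc25a36 stands at 2.04 and Slc25a10 at -0.998. The 4 ATP-Mg and phosphate carriers have negative values, with Slc25a24 almost at 0 (-0.0033, SE 0.37).

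Slc25a20, the acylcarnitine carrier that brings fatty acids in for oxidation, had 16.02 and 17.4 CPM in knockout-labelled libraries and 8.48 and 12.2 CPM in controls. Both knockout-labelled libraries were higher and alike, with means of 16.7 ± 1.01 CPM in knockout-labelled and 10.3 ± 2.64 CPM in control libraries (SD, n = 2 each). The fold change was 0.69 on the log2 scale (SE 0.27, 95% interval 0.031 to 1.35, edgeR adjusted p = 0.419). It was 0.75 without knockout-labelled replicate 1 and 0.61 without knockout-labelled replicate 2. It was 0.45 without control replicate 3 and 0.97 without control replicate 8.

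The folate carrier gene Slc25a32 had 5.77 and 11.5 CPM in knockout-labelled libraries and 14.9 and 16.5 CPM in controls (log2 fold change -0.86, SE 0.37, adjusted p = 0.433), lower in both knockout-labelled libraries. This became -0.45 with knockout-labelled replicate 1 left out and -1.45 with replicate 2 left out. A pair of matrix enzymes that use folate had higher values in both knockout-labelled libraries. Shmt2, which splits serine to load folate with a one-carbon unit, had 561 and 395 CPM in knockout-labelled libraries and 204 and 239 CPM in controls (1.11, SE 0.25, edgeR adjusted p = 0.278). Mthfd2, which oxidises the loaded folate, had 539 and 427 CPM in knockout-labelled libraries and 227 and 268 CPM in controls (0.97, SE 0.23, edgeR adjusted p = 0.295). DESeq2 called both (adjusted p = 0.005 and 0.00928), as did edgeR's likelihood ratio test (adjusted p = 0.00871 and 0.0186). Neither tool called Slc25a32 (adjusted p = 0.292 and 0.350). Gcsh, a subunit of the glycine cleavage system, had 5.94 and 12.9 CPM in knockout-labelled libraries and 15.7 and 17.8 CPM in controls (-0.83, SE 0.39), and Mthfd1l (0.12), Dld (0.11) and Mthfd2l (-0.14) overlapped between groups.

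The glutathione carriers had small positive values. Slc25a39 (chromosome 11, 102264299 to 102269260 on NCBIM37) had 739 and 753 CPM in knockout-labelled libraries and 734 and 539 CPM in controls (log2 fold change 0.23, SE 0.25, adjusted p = 0.642). The knockout-labelled libraries were alike and control replicate 8 was low, and without control replicate 8 the log2 fold change was 0.014. Its paralog Slc25a40 had 14.3 and 19.4 CPM in knockout-labelled libraries and 15.0 and 13.5 CPM in controls (0.24, SE 0.25). The S-adenosylmethionine carrier gene Slc25a26 had 2.32 and 2.95 CPM in knockout-labelled libraries and 3.19 and 3.17 CPM in controls (-0.27, SE 0.34).

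Slc25a28, mitoferrin 2, a mitochondrial iron importer found in many tissues, had 28.8 and 16.02 CPM in knockout-labelled libraries and 14.8 and 14.3 CPM in controls. Knockout-labelled replicate 1 was high and knockout-labelled replicate 2 was little above the controls. Mean levels were 22.4 ± 9.07 CPM in knockout-labelled and 14.6 ± 0.317 CPM in control libraries (SD, n = 2 each). The log2 fold change was 0.62 (SE 0.32, 95% interval -0.17 to 1.41, edgeR adjusted p = 0.439). Leaving out knockout-labelled replicate 1 gave 0.14, and leaving out replicate 2 gave 0.97.

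The remaining 4 members had log2 fold changes between -0.37 and 0.23. Slc25a14, a relative of the uncoupling proteins, had 1.63 and 2.33 CPM in knockout-labelled libraries and 2.57 and 2.56 CPM in controls (-0.37, SE 0.37). Slc25a30, of the same branch, had 12.0 and 9.20 CPM in knockout-labelled libraries and 9.54 and 10.1 CPM in controls (0.11, SE 0.26). Of the 4, Slc25a14 alone had groups that did not overlap. Slc25a46, an outer-membrane protein that shapes mitochondria, had 48.8 and 65.1 CPM in knockout-labelled libraries and 74.5 and 62.9 CPM in controls (-0.27, SE 0.22). Slc25a45 had 1.17 and 0.933 CPM in knockout-labelled libraries and 1.12 and 0.697 CPM in controls, on 31 to 36 counts per library.

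Across the family the 2 knockout-labelled libraries stood at different distances from the controls. Of the knockout-labelled libraries, replicate 1 was the one farther from the controls in 26 of 33 members (78.8%), as in 82.7% of all genes. The members' median difference from the control mean was -0.25 (log2) in knockout-labelled replicate 1 and -0.10 in knockout-labelled replicate 2. The groups did not overlap in 20 members, of which 6 were higher in both knockout-labelled libraries and 14 lower, where 27.4% of all genes were higher and 26.7% lower. The members' shares were 18.2% and 42.4%. The difference between group means exceeded both within-group gaps in 9 members (27.3%), against 31.2% of all genes. Among these 9 were Slc25a3, Slc25a5, Slc25a13, Slc25a17, Slc25a20, Slc25a21, Slc25a23 and Slc25a25.

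**Figure D3:**
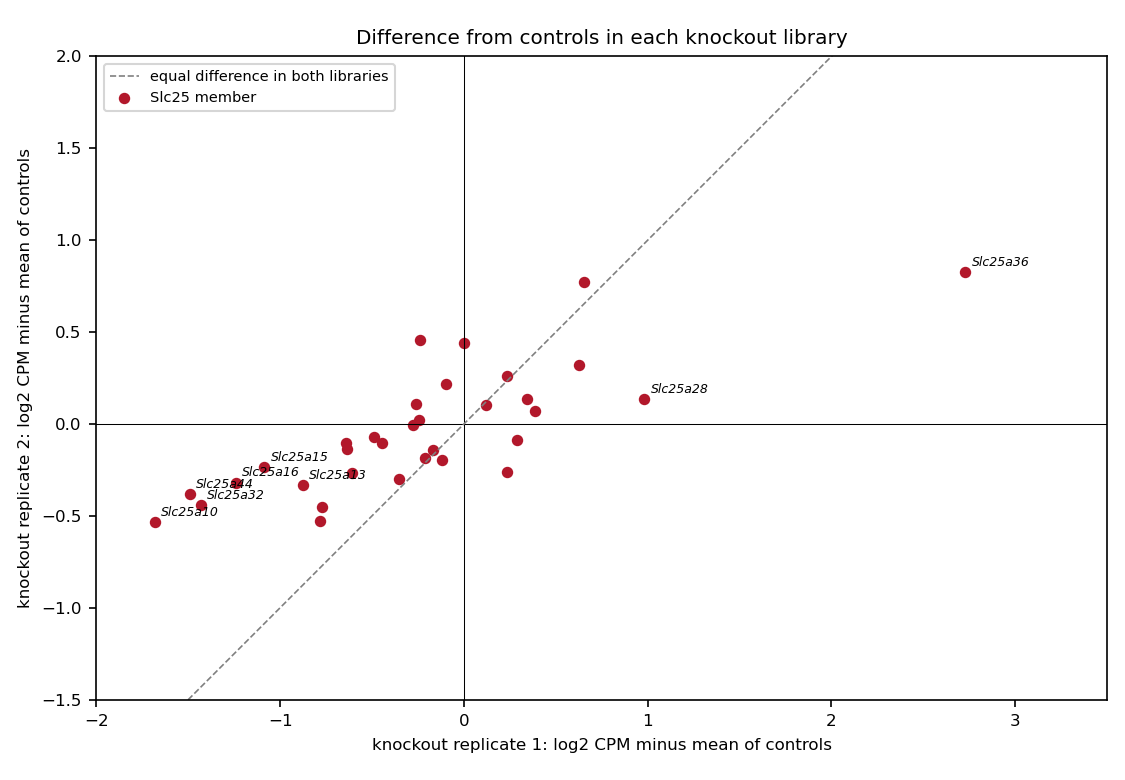
Difference of each Slc25 gene from the mean of the 2 controls (log2 CPM), in knockout-labelled replicate 1 on the horizontal and knockout-labelled replicate 2 on the vertical axis, with a dashed line of equal difference. The 8 named genes lie on the same side in replicate 2 with smaller differences, such as 2.73 and 0.83 for Slc25a36.

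Leaving out knockout-labelled replicate 2 called 10 members (30.3%) at an adjusted p below 0.05, where the same fit called 32.6% of all genes. Of these, 2 rose (Slc25a36 and Slc25a28), beside 17.3% of all genes higher. The 8 that fell in that fit were Slc25a10, Slc25a11, Slc25a13, Slc25a15, Slc25a16, Slc25a25, Slc25a32 and Slc25a44, or 24.2% of members beside 15.3% of all genes lower. Leaving out knockout-labelled replicate 1, control replicate 3 or control replicate 8 called 0 members, where those fits called 1.33%, 0.383% and 0.252% of all genes. Knockout-labelled replicate 1 is the library with the highest neutrophil and megakaryocyte marker sums and the lowest macrophage sum. Its megakaryocyte sum was mostly Itga2b. Pf4 and Ppbp of the same list were also highest there, and Gp9 was lowest there. The part of these cell types in the carrier values was not tested.

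Genes that work beside the carriers were read from 6 lists. They hold 16 ATP synthase, 13 import, 6 folate, 5 other carrier, 3 porin and 2 pyruvate carrier genes. In edgeR's quasi-likelihood test 0 of them passed, where 0.103% of all genes did. With knockout-labelled replicate 2 left out, the log2 fold change was 1.33 for Shmt2 and 1.11 for Mthfd2. It was -1.51 for Gcsh, -1.04 for Tomm5, -1.01 for Tomm40 and -0.94 for Timm8a1. For Atp5j, Atp5g3 and Timm9 it was -0.80, -0.73 and -0.68. These genes are named because that fit, which has 1 knockout library, called them. Leaving out knockout-labelled replicate 1 instead gave smaller sizes, 0.84 for Shmt2 and 0.79 for Mthfd2. It gave -0.39 for Tomm40, -0.35 for Tomm5 and -0.31 for Atp5g3. For the other named genes that omission is not given here. The import machinery, which threads carriers through the outer membrane and inserts them, had 11 of 13 genes with negative log2 fold changes and a median of -0.32. Its largest difference was in Tomm40, the pore of the outer membrane, at 40.2 and 61.3 CPM in knockout-labelled libraries and 72.5 and 88.5 CPM in controls (-0.67, SE 0.26, adjusted p = 0.419). Tomm5, a small subunit of the same pore complex, had 23.1 and 37.0 CPM in knockout-labelled libraries and 38.7 and 55.4 CPM in controls (-0.65, SE 0.31, adjusted p = 0.433). Both were lower in each knockout library than in each control. Timm22, the inner-membrane channel that inserts carriers, had 15.1 and 18.3 CPM in knockout-labelled libraries and 20.3 and 22.2 CPM in controls (-0.35, SE 0.22).

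ATP synthase uses the ADP and phosphate that carriers supply. The 16 genes listed for it, with its inhibitor gene Atpif1 (0.30) among them, had 6 positive and 10 negative values and a median of -0.038. Atp5g3, a gene of its membrane ring, had 156 and 206 CPM in knockout-labelled libraries and 241 and 272 CPM in controls (-0.50, SE 0.22, adjusted p = 0.433), and Atp5j2 had -0.37 (SE 0.18). The 3 porin genes of the outer membrane, Vdac1 (-0.08), Vdac2 (-0.08) and Vdac3 (0.05), had values near 0, as had the pyruvate carrier genes, listed as Brp44 (0.13) and Brp44l (-0.05). Carrier family genes under other names ranged from -0.25 in Mtch2 to 0.37 in Mcart1, whose current name is in the Slc25 series and which carries NAD. Mcart1 had 585 and 638 CPM in knockout-labelled libraries and 533 and 416 CPM in controls (SE 0.23, adjusted p = 0.476). The uncoupling protein gene Ucp2 overlapped, at 1331 and 1984 CPM in knockout-labelled libraries and 1925 and 1465 CPM in controls.

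**Figure D4:**
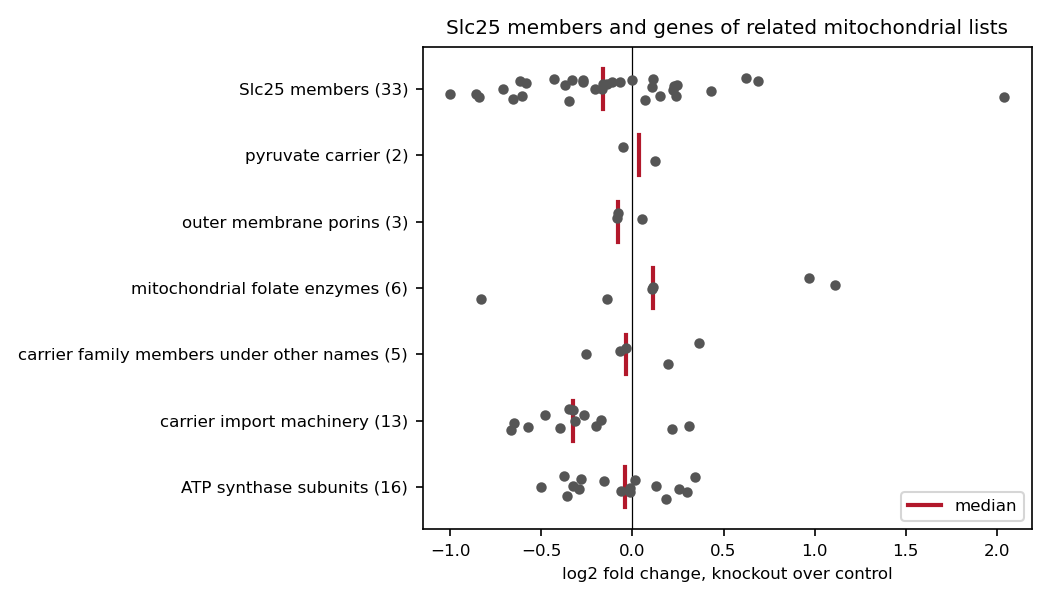
Log2 fold change of knockout over control for the Slc25 genes and for genes of 6 related mitochondrial lists, 1 point per gene with the number of genes in brackets and the list median in red. The import machinery has the lowest median, -0.32, and Shmt2 and Mthfd2 of the folate list stand at 1.11 and 0.97.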

How the data were processed

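RNA from 4 libraries of sorted fetal liver erythroid cells was analysed from the raw counts per gene that the authors deposited, which are whole numbers. Per the submitters' processing notes, the tools included GATK, HTSeq, TopHat2 2.0.8, limma, Bowtie2 2.1.0.0, edgeR, Trimmomatic 0.30, Cufflinks, BWA 0.6.2 and SAMtools 0.1.19, with builds mm9 and NCBIM37 and no stated roles. The authors also deposited a p-value and an adjusted p-value per gene. Library strandedness and how reads common to paralogs were counted are not given in the sources used here.

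Counts were fitted in edgeR 4.0.16 (R 4.3.3) with filterByExpr, which removed 0 of 10716 genes, TMM scaling, glmQLFit (robust=TRUE, legacy=TRUE) and a quasi-likelihood F test (two-sided) of knockout against control. Benjamini-Hochberg adjustment ran over all 10716 genes, with a threshold of 0.05 and 2 residual degrees of freedom. CPM are counts per 1000000 counts of the TMM-scaled library. SE is the size of the log2 fold change over the root of F, and 95% intervals used the t distribution with the fit's total degrees of freedom. Levels between genes were compared as CPM per kilobase of all annotated exons on NCBIM37 (GENCODE), found for 33 of 33 members. The fit was run on simulated data, with the same spread for every gene, to check the direction and size of set changes. Those changes were larger than most differences reported here, so calls on smaller differences were not tested.

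Alternatives were scaling by RLE or not at all, no filter, at least 1 CPM in every library of a group, DESeq2 1.42.0, limma-voom (limma 3.58.1), edgeR's likelihood ratio test, robust=FALSE, legacy=FALSE and leaving out each library. The members, role classes and lists were chosen with earlier results of these data known. Named are Slc25a38, Slc25a28, the nucleotide carriers, any member past the threshold, the 2 members of each class with the smallest p, the 5 largest and 5 smallest log2 fold changes with mean log2 CPM 1 or more, and the 3 highest levels per kilobase. Beyond this rule, other members are named to account for the family, after their values were seen. The values of 1 member, which is in every count, are not reported here.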

Additional observations from a re-analysis of the deposited data

How the results depend on the processing

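No paired analysis was possible because the groups share no replicate number. Of 296 member values under scaling, filter and tool alternatives, 294 kept their direction and side of the threshold, and 2 were Slc25a36 called by DESeq2 and by edgeR's likelihood ratio test. Slc25a45 gave no value at 1 CPM in every library of a group. Under no library scaling, 85 genes were called higher and 2 lower, with DESeq2 353 and 21, and with the likelihood ratio test 331 and 18, against 11 and 0. DESeq2 and the likelihood ratio test each called 1 member and 2 partner genes (Shmt2 and Mthfd2) higher. Leaving out each library gave 25 to 1851 genes higher and 1 to 1641 lower, 0 to 2 members higher and 0 to 8 lower, and 0 to 2 partner genes higher and 0 to 7 lower. A lone library was then assumed to vary like the other group. The members' median ranged from -0.26 to -0.10. The log2 fold change changed sign in Slc25a12 (-0.26 to 0.018), Slc25a18 (-0.26 to 0.47), Slc25a22 (-0.28 to 0.10), Slc25a24 (-0.28 to 0.22), Slc25a30 (-0.091 to 0.28), Slc25a40 (-0.0094 to 0.44), Slc25a42 (-0.11 to 0.22), Slc25a45 (-0.11 to 0.59) and Vdac2 (-0.21 to 0.044). The cause was not tested. With 2 libraries a group and a biological coefficient of variation of 25.6%, intervals are wide, as for Slc25a38 (95% interval -0.66 to 0.33).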
